A study of Mus musculus with 9 samples.

Results

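The troponin genes encode the calcium switch of striated muscle, and all 8 of them (*Tnni1*, *Tnni2*, *Tnni3*, *Tnnt1*, *Tnnt2*, *Tnnt3*, *Tnnc1* and *Tnnc2*) were taken by their symbol from the 48820 genes of a table of mRNA levels in the perinatal mouse heart. Whole-heart RNA was sequenced of untreated wild-type C57BL/6J mice, all labelled male, taken before birth on embryonic day 18.5 (E18.5d) or after it on postnatal day 1 (P1d) or 7 (P7d). Each stage had 3 hearts, which the labels call biological replicates, so 9 hearts were compared in all. Levels are in FPKM, the fragments assigned to a gene per kilobase of its length and per 1e6 mapped fragments. Comparisons of level between genes depend on that length, which is not given in the sources used here.

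Troponin sits on the actin thin filament and consists of 3 kinds of subunit. Troponin C binds calcium, troponin I holds actin and myosin apart until calcium arrives, and troponin T ties the complex to tropomyosin. The genes exist as slow skeletal, fast skeletal and cardiac forms, and the developing heart is known for exchanging the slow skeletal troponin I, which keeps contraction less sensitive to acid, for the cardiac form, which carries an N-terminal extension that protein kinase A phosphorylates.

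The depth, read from the steps between low FPKM values, was 25.0 to 44.25 times 1e6 fragments per heart. In 4 hearts (E18.5d replicates 1 and 3, P7d replicates 2 and 3) *Xist* stood at 58.0 to 97.0 FPKM and the genes *Eif2s3y*, *Ddx3y*, *Uty* and *Kdm5d* of the Y chromosome were listed at 0, against the male label, while *Xist* was at most 0.11 FPKM in the other 5. Results are therefore also given without these 4 hearts, which leaves 1 heart each at E18.5d and P7d beside the 3 of P1d. All 10 cardiomyocyte markers were above 0 in every heart, and their sum without *Myh6* was 4646 to 4757 FPKM at E18.5d, 5355 to 5635 at P1d and 5732 to 5811 at P7d. Not all of them rose. *Csrp3* was at 922 to 997 FPKM at E18.5d and 716 to 745 at P7d, and *Nkx2-5* at 38.1 to 41.2 and 26.3 to 29.8. Because whole hearts were sequenced, fewer cells of a type and less RNA per cell cannot be told apart.

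*Tnni1*, the slow skeletal troponin I of the fetal heart, fell between P1d and P7d. Its FPKM in replicates 1, 2 and 3 was 1829, 1862 and 1709 at E18.5d, 1753, 2019 and 1797 at P1d, and 927, 859 and 800 at P7d. The E18.5d and P1d hearts overlapped, and every P7d heart lay below all of them. The mean was 1800 ± 80.6 FPKM at E18.5d (SD, n = 3), 1856 ± 142 at P1d and 862 ± 63.3 at P7d, so the P7d mean fell by 52.1% from E18.5d. On the scale of log2(FPKM + 1), limma gave a change of -1.06 (SE 0.08, adjusted p = 1.11e-05) at P7d against E18.5d and of -1.11 (SE 0.08, adjusted p = 1.80e-05) against P1d. From E18.5d to P1d the change was 0.04 with a 95% interval from -0.14 to 0.22 (adjusted p = 0.693), so a change in either direction within these bounds was not resolved. With quantile normalization the change from P1d to P7d was -0.67 and that from E18.5d to P1d -0.18 (adjusted p = 0.0849).

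*Tnni3*, the cardiac troponin I, rose within the step from E18.5d to P1d. Its FPKM was 2360, 2394 and 2278 at E18.5d, 2886, 3159 and 3053 at P1d, and 2839, 2954 and 2909 at P7d. All P1d and P7d hearts exceeded all E18.5d hearts, while the P1d and P7d hearts overlapped. The means of 2344 ± 59.9, 3032 ± 138 and 2901 ± 58.2 FPKM (SD, n = 3 each) put P1d 29.4% above E18.5d. The log2 change was 0.37 (SE 0.06, adjusted p = 0.00138 by limma) at P1d and 0.31 (SE 0.06, adjusted p = 0.00348) at P7d, both against E18.5d. Between P1d and P7d it was -0.06 with an interval from -0.21 to 0.08 (adjusted p = 0.450). The call at P1d did not hold when all columns were rescaled to an equal sum (0.20, adjusted p = 0.0699), while quantile normalization gave 0.31 there and median of ratios 0.49 at P7d. Per length as deposited, *Tnni3* was the more abundant of the pair in each of the 3 E18.5d hearts. As fragments not divided by length, its mean share of the pair at E18.5d was 42.7% by exon-union length and 50.8% by principal transcript length.

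**Figure D1:**
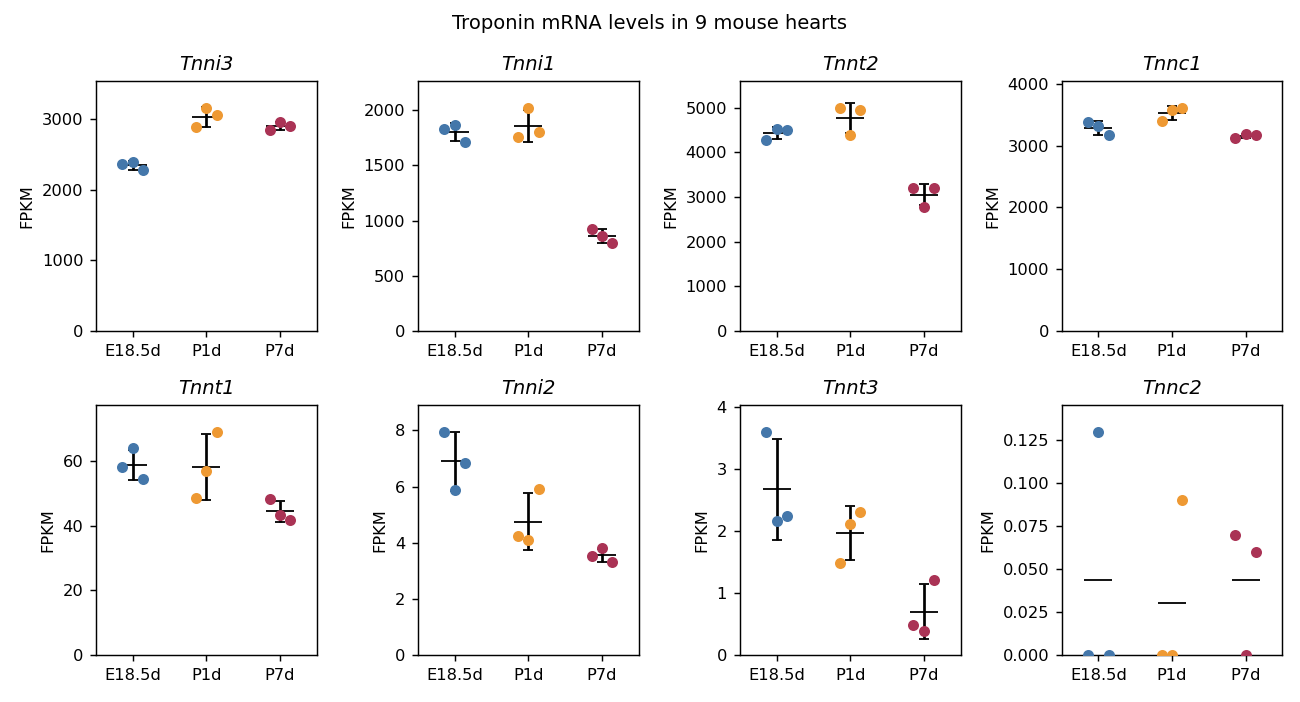
FPKM of the 8 troponin genes in each of 9 hearts at E18.5d, P1d and P7d (points), with the mean as a horizontal line and the SD over 3 hearts as error bars (none for *Tnnc2*), each panel with its own axis from 0. The P7d hearts lie below all earlier hearts for *Tnni1*, *Tnni2*, *Tnnt1*, *Tnnt2* and *Tnnt3*, and the P1d and P7d hearts lie above all E18.5d hearts for *Tnni3*.

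The share of *Tnni3* in the summed FPKM of *Tnni1* and *Tnni3* stays the same when a heart's column is multiplied by any single factor. Quantile normalization is no such factor, and the log2 changes under it are given above. It was 56.3%, 56.2% and 57.1% in the E18.5d hearts, 62.2%, 61.0% and 63.0% in the P1d hearts, and 75.4%, 77.5% and 78.4% in the P7d hearts. No heart overlapped a heart of another stage, and the hearts of a stage lay within about 3 percentage points of each other. The means were 56.6% ± 0.486, 62.1% ± 0.978 and 77.1% ± 1.55 (SD, n = 3 each), so the share was 5.48 points higher at P1d than at E18.5d and a further 15.0 points higher at P7d. An exact permutation test over the 3 stages gave p = 0.00357, the smallest it can give, and 0.0114 after Benjamini-Hochberg adjustment over the 16 ratios and shares tested. Each pair of stages gave an exact two-sided p of 0.1, the smallest that 3 hearts against 3 allow. Without the 4 hearts whose *Xist* level went against their label, the single E18.5d heart stood at 56.2%, the single P7d heart at 75.4%, and the difference was 19.1 points, in a design whose smallest p over the 3 stages no longer reaches 0.05.

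**Figure D2:**
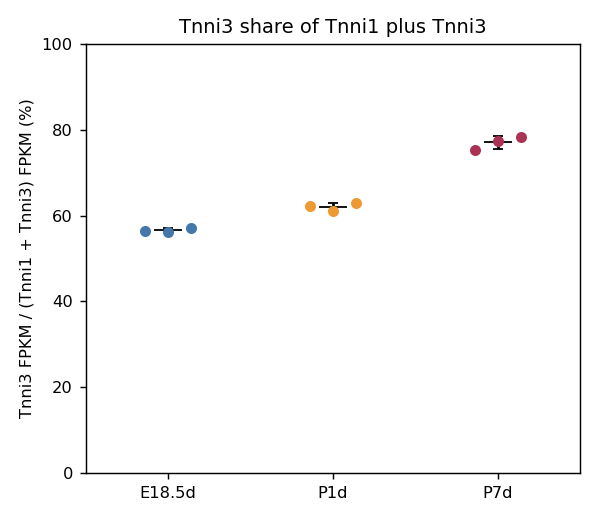
Share of *Tnni3* in the summed FPKM of *Tnni1* and *Tnni3*, in percent, per heart (points) with mean and SD (n = 3) at each stage. The shares lie at 56.2% to 57.1% at E18.5d, 61.0% to 63.0% at P1d and 75.4% to 78.4% at P7d.

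From E18.5d to P1d *Tnni3* changed by 0.37 and *Tnni1* by 0.04, and from P1d to P7d by -0.06 and -1.11, on the deposited scale. With columns of equal sum neither gene passed at P1d against E18.5d (*Tnni3* 0.20, *Tnni1* -0.13), so which gene carries the first step depends on the scale. On the log2 ratio of *Tnni3* to *Tnni1*, whose mean went from 0.38 through 0.71 to 1.75, the first step measured 0.33 and the second 1.04. The share also depends on the gene length behind FPKM, and the length the authors used is not given in the sources used here. The depth above was read from short genes, where the exon-union length less 288 to 320 bases made 83.7% to 90.0% of low values whole fragments within 0.1, and other length definitions were not compared. Multiplying each gene's FPKM by its exon-union length (3600 bases for *Tnni1*, 2063 for *Tnni3*) gave a share of fragments of 42.7%, 48.4% and 65.9% at the 3 stages, and by the longest principal transcript (1150 and 912 bases) 50.8%, 56.5% and 72.8%. With the exon-union length, *Tnni1* thus supplied the larger part of the pair's fragments at E18.5d and P1d. The same lengths were applied to every heart, so the order of hearts and stages could not change between these measures.

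*Tnni2*, the fast skeletal troponin I, was a trace transcript that was lower at P7d than at E18.5d. It stood at 7.96, 5.88 and 6.84 FPKM at E18.5d, 4.22, 4.10 and 5.93 at P1d, and 3.52, 3.80 and 3.32 at P7d. Each P7d heart lay below every earlier heart, and 1 P1d heart lay within the E18.5d range. The log2 change was -0.79 (SE 0.14, adjusted p = 0.00122 by limma) at P7d and -0.46 (SE 0.14, adjusted p = 0.0198) at P1d, both against E18.5d. The call at P1d was lost without E18.5d replicate 1 (adjusted p = 0.0735), E18.5d replicate 3 (0.0516), P1d replicate 1 (0.0670) or P1d replicate 2 (0.0653), with quantile normalization (-0.35, 0.0771) and with a covariate for high *Xist* (-0.36, 0.126). Against P1d, the P7d value of -0.33 did not pass (adjusted p = 0.0786). *Tnni2* made up 0.166%, 0.0974% and 0.0941% of the summed troponin I FPKM, with an exact permutation p of 0.0321 over the stages that did not pass after adjustment (0.0514).

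The sequence upstream of the annotated start is shown for the 4 most abundant members, as given by RefSeq for GRCm38.p6, because *Tnni1* fell, *Tnni3* rose, *Tnnt2* fell and *Tnnc1* changed little over the same days. Each line holds 166 bases in the direction of transcription, and annotated exons were left out, so that the *Tnni1* window ends 20 bases before the start. The starts are those of RefSeq, and the *Tnni1* and *Tnni3* windows lie inside the GENCODE gene spans given further below. Capitals mark matches on either strand to the E-box, the M-CAT word or a GATA word, whose letters are given with the search. The windows are chr1:135799236-135799401 on the plus strand for *Tnni1*, chr7:4522529-4522694 on the minus strand for *Tnni3*, chr1:135836168-135836333 on the plus strand for *Tnnt2* and chr14:31208146-31208311 on the plus strand for *Tnnc1*.
Tnni1: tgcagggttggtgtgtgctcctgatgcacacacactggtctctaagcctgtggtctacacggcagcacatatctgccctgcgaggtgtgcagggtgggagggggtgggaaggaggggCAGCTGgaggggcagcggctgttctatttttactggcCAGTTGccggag
Tnni3: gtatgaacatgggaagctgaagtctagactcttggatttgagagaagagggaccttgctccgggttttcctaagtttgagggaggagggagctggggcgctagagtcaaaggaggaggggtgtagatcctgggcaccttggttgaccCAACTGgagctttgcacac
Tnnt2: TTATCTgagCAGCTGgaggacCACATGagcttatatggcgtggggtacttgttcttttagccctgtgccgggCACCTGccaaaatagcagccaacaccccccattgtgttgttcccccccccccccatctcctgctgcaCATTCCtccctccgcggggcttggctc
Tnnc1: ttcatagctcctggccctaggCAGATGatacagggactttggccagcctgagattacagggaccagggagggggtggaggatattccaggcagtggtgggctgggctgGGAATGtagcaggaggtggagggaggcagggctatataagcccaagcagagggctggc

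Both strands of the 250 bases before each start were searched, and the promoter table held 8 starts of 6 of the genes, without *Tnni2* and *Tnnt3*. CANNTG, the E-box, occurred 4 times at the first *Tnni1* start, 4 times at the first *Tnnt2* start, 2 times at *Tnnc1* and once at *Tnni3*, and 66.22% of all 32851 promoters hold at least 1 match. CATTCC, the M-CAT word bound by TEAD factors, was found at *Tnnt2* (27 to 22 bases before the start) and, on the other strand, at *Tnnc1* (58 to 53 bases before it), against 12.64% of all promoters. AGATAA, bound by GATA factors, was found on the other strand at *Tnnt2* (166 to 161 bases before the start) and is held by 9.99% of promoters. The other GATA words searched, TGATAA (in 7.94% of promoters), AGATAG (in 7.71%) and TGATAG (in 6.35%), had no match at these starts, and 26.54% of promoters hold at least 1 of the 4 words. TATAAA was found at *Tnnt1* alone of these genes (30 to 25 bases before the start), against 12.37% of promoters. The CArG box and the MEF2 site were not found in these windows, and 1.47% and 1.69% of promoters hold them. These are matches of letters, and no binding was measured.

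*Tnnt2*, the cardiac troponin T, had the highest FPKM of the members before and just after birth and fell by P7d. Its FPKM was 4278, 4510 and 4503 at E18.5d, 4994, 4388 and 4943 at P1d, and 3198, 2778 and 3192 at P7d. The P7d hearts lay below all earlier hearts, and the E18.5d and P1d hearts overlapped. The means were 4431 ± 132, 4775 ± 336 and 3056 ± 241 FPKM (SD, n = 3 each), and limma gave a log2 change of -0.54 (SE 0.09, adjusted p = 0.000771) at P7d against E18.5d and of -0.64 (SE 0.09, adjusted p = 0.000372) against P1d. The first was -0.36 with median of ratios and the second -0.34 with quantile normalization, and both still passed. At P1d against E18.5d the change was 0.11 with an interval from -0.09 to 0.30 (adjusted p = 0.336), and its direction turned with the scale, to -0.07 with columns of equal sum and to -0.37 (adjusted p = 0.0119) with quantile normalization. Around birth *Tnnt2* thus had no direction that held over these scales.

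*Tnnt1*, the slow skeletal troponin T, was far less abundant than *Tnnt2*. It stood at 58.2, 64.0 and 54.6 FPKM at E18.5d, 48.7, 56.97 and 69.3 at P1d, and 48.2, 43.5 and 41.8 at P7d. The P7d hearts lay below all others, but the lowest P1d heart was within 1 FPKM of the highest P7d heart. The log2 change at P7d was -0.40 (SE 0.12, adjusted p = 0.0201 by limma) against E18.5d and -0.37 (SE 0.12, adjusted p = 0.0302) against P1d. Neither call was stable. The first was lost with median-of-ratios scaling (-0.22, adjusted p = 0.163) and quantile normalization (-0.26, 0.108). It was also lost without E18.5d replicate 2 (0.0747), P7d replicate 2 (0.0602) or P7d replicate 3 (0.0669). The second was lost with columns of equal sum (-0.24, 0.194), median of ratios (-0.26, 0.101) and quantile normalization (-0.25, 0.119). A covariate for high *Xist* removed it as well (-0.25, 0.198), as did leaving out P1d replicate 2 (0.0566), P1d replicate 3 (0.0759), P7d replicate 2 (0.0821) or P7d replicate 3 (0.0948). The P1d value against E18.5d was -0.03 (adjusted p = 0.876).

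*Tnnt3*, the fast skeletal troponin T, was the lowest of the troponin T genes. It was at 3.61, 2.16 and 2.25 FPKM at E18.5d, 1.48, 2.12 and 2.31 at P1d, and 0.490, 0.390 and 1.21 at P7d. The P7d hearts were again below all earlier ones, and the mean fell by 73.9% from E18.5d to P7d. The log2 change was -1.12 (SE 0.21, adjusted p = 0.00214 by limma), and -0.83 (SE 0.21, adjusted p = 0.0119) against P1d. The pseudocount of 1 understates the change at such levels, and one of 0.1 gave -1.90 and -1.49. *Tnnt3* shares its locus with *Prr33* on the opposite strand, which was at 0.68 to 3.13 FPKM, and the library kit does not mark strand, so reads of the pair could not be separated by strand.

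Within troponin T, the share of the main isoform moved by less than its spread between hearts while the total fell. *Tnnt2* made up 98.6%, 98.7% and 98.5% of the summed troponin T FPKM at the 3 stages (exact permutation p = 0.307) and *Tnnt1* 1.31%, 1.21% and 1.44% (p = 0.279). For the *Tnnt2* share the difference of P7d minus E18.5d was -0.0896 percentage points, smaller in size than the SD of either stage. *Tnnt3* made up 0.0599%, 0.0410% and 0.0221%, with p = 0.0429 by the exact permutation test, which did not pass after adjustment (0.0623).

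*Tnnc1*, the troponin C of cardiac and slow skeletal muscle, was the steadiest of the abundant members. Its FPKM was 3386, 3311 and 3168 at E18.5d, 3399, 3571 and 3611 at P1d, and 3117, 3191 and 3165 at P7d. The P1d hearts lay above all others by a small margin, and the E18.5d and P7d hearts overlapped. The log2 change was -0.06 with an interval from -0.20 to 0.09 (adjusted p = 0.477 by limma) at P7d against E18.5d, 0.10 from -0.04 to 0.24 (adjusted p = 0.222) at P1d against E18.5d, and -0.16 from -0.30 to -0.02 (adjusted p = 0.0694) at P7d against P1d. Median-of-ratios scaling turned the first of these to 0.12. *Nisch*, which overlaps *Tnnc1* on the opposite strand, was at 121 to 165 FPKM.

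*Tnnc2*, the fast skeletal troponin C, was close to absent from these libraries. It was listed at 0, 0.13 and 0 FPKM at E18.5d, 0, 0 and 0.09 at P1d, and 0.07, 0 and 0.06 at P7d. At the depth read from the low values, the values above 0 come to 2.4, 1.25, 1.21 and 1.31 fragments. With each rounded this makes 5 fragments in all 9 hearts. None was whole within 0.1, so the fitted length does not hold exactly for *Tnnc2* and the count is approximate. A level equal to 3 fragments, 0.138 to 0.238 FPKM depending on the heart, is the upper limit that a count of 0 allows, for counting error only. That limit rests on the same fitted length. *Tnnc2* did not reach the mean of 1 FPKM needed to enter the fit, and it overlaps *Ube2c* on the opposite strand (21.7 to 86.3 FPKM).

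Of the 7 troponin genes tested, 6 passed the threshold of 0.05 at P7d against E18.5d, with *Tnni3* higher and the other 5 called genes lower, where 49.4% of all 13618 genes tested passed (12.5% higher and 36.9% lower). At P1d against E18.5d, 2 of the 7 passed, *Tnni3* higher and *Tnni2* lower, beside 46.0% of all genes (18.4% higher and 27.6% lower). At P7d against P1d, 4 of the 7 passed (*Tnni1*, *Tnnt1*, *Tnnt2* and *Tnnt3*), all lower, beside 44.2% of all genes (15.5% higher and 28.6% lower). These backgrounds are high, and the directions in them move with the scale: the calls at P7d against E18.5d were 1706 higher and 5025 lower as deposited but 2905 and 2848 with median-of-ratios scaling, those at P1d against E18.5d 2505 and 3755 but 3154 and 3112, and those at P7d against P1d 2112 and 3901 but 2986 and 2700. The median log2 change of all genes was -0.17, -0.06 and -0.09 in the 3 comparisons. Relative to the median at P7d against E18.5d, *Tnni3* was at 0.48, *Tnnc1* at 0.12, *Tnnt2* at -0.37, *Tnni1* at -0.89 and *Tnnt3* at -0.95. Without the 4 hearts of high *Xist* limma called 0 of the 7 in each comparison, on 1 heart each at E18.5d and P7d that is assumed to vary as the P1d hearts do. At an unadjusted p under 0.05 there were 2 at P7d against E18.5d (*Tnni1* and *Tnnt3*), 0 at P1d against E18.5d and 3 at P7d against P1d (*Tnni1*, *Tnnt2* and *Tnnt3*). The log2 changes at P7d against E18.5d kept their signs, with *Tnni1* at -1.01 (adjusted p = 0.0717), *Tnni3* at 0.25 (0.464) and *Tnnt2* at -0.50 (0.243). In that reduced set 194 of all genes passed at P7d against E18.5d.

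**Figure D3:**
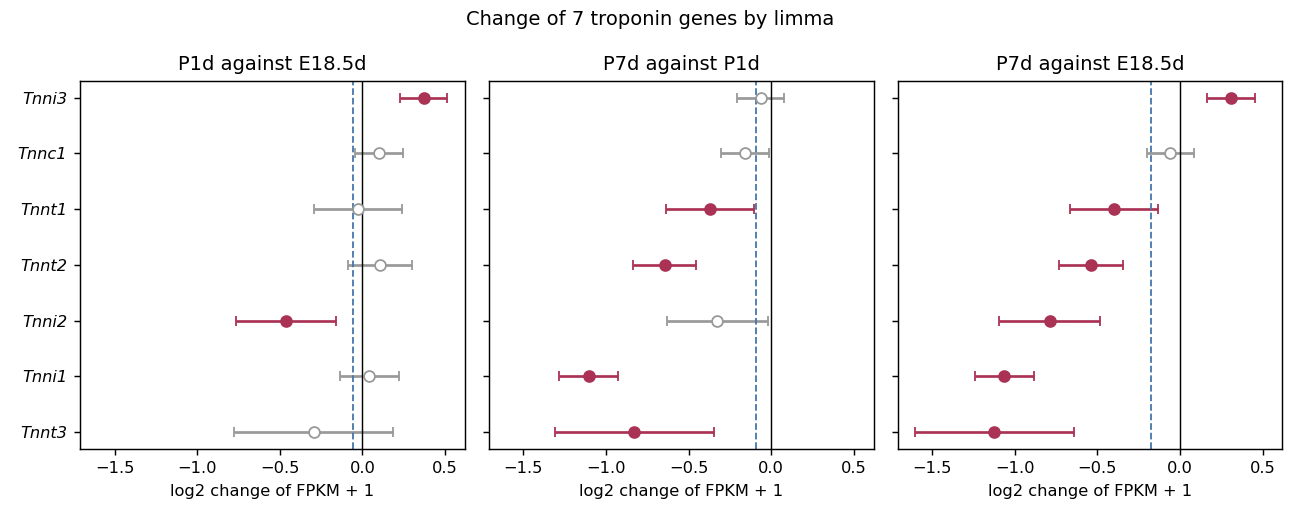
Change of 7 troponin genes on the scale of log2(FPKM + 1) in 3 comparisons of stages, with 95% intervals from limma over 9 hearts. Filled points have an adjusted p under 0.05, the solid line is 0 and the dashed line is the median change of all 13618 genes. *Tnni3* is the only member called higher, at 0.37 and 0.31 against E18.5d, and *Tnni1* and *Tnnt3* carry the lowest values at P7d against E18.5d.

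Among all protein-coding genes ranked by mean FPKM, 4 members stayed within the first 61 throughout. *Tnnt2* was ranked 7, 10 and 14 at E18.5d, P1d and P7d, *Tnnc1* 14, 13 and 12, *Tnni3* 20, 17 and 15, and *Tnni1* 25, 31 and 61. At E18.5d and P1d the hearts of *Tnnt2*, *Tnnc1*, *Tnni3* and *Tnni1*, in that order of level, did not overlap between neighbours. At P7d *Tnnc1* had the highest mean, followed by *Tnnt2* and *Tnni3*. All *Tnnc1* hearts lay above all *Tnni3* hearts, while the *Tnnt2* hearts overlapped those of both, so the place of *Tnnt2* was not resolved. The order between genes depends on the lengths behind FPKM. Below them came *Tnnt1*, ranked 1203, 1216 and 1478, then *Tnni2*, *Tnnt3* and *Tnnc2*. Together the troponins took 2.29% to 2.38% of the FPKM of nuclear protein-coding genes at E18.5d, 2.49% to 2.71% at P1d and 2.14% to 2.24% at P7d.

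Summed by subunit, troponin T had the highest mean of the 3 subunits at E18.5d, and its P7d mean was below that of troponin C through P7d replicate 2, the 1 heart of 3 in which the ratio of troponin T to C was under 1. Troponin I summed to 4151 ± 140, 4893 ± 271 and 3766 ± 52.3 FPKM at the 3 stages (SD, n = 3 each), troponin T to 4492 ± 132, 4835 ± 337 and 3101 ± 242, and troponin C to 3288 ± 111, 3527 ± 113 and 3158 ± 37.5. The ratio of troponin I to C was 1.26 ± 0.0238, 1.39 ± 0.0564 and 1.19 ± 0.0184, with no overlap between stages (exact permutation p = 0.00357, adjusted 0.0114), and was thus highest at P1d. The ratio of troponin T to C was 1.37 ± 0.0798, 1.37 ± 0.120 and 0.983 ± 0.0858 (p = 0.0321 by the exact permutation test, 0.0514 adjusted), with all P7d hearts below the others. The ratio of troponin I to T was 0.925 ± 0.0460, 1.02 ± 0.130 and 1.22 ± 0.115, and its p of 0.0607 by the same exact permutation test did not pass. These are ratios of mRNA per length, so their size depends on the gene lengths used, and no protein was measured here.

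**Figure D4:**
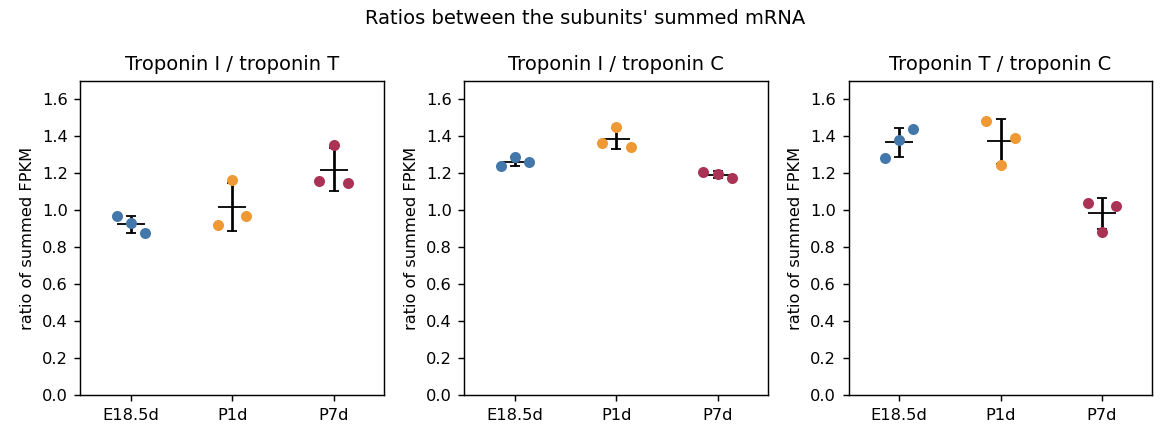
Ratios of summed FPKM between troponin subunits in each heart (points), with mean and SD (n = 3), on axes from 0. The ratio of troponin I to C is highest at P1d (1.39), and the ratio of troponin T to C lies lowest at P7d (0.983).

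The exchange of troponin I isoforms was set beside those of myosin heavy chain and actin, the other sarcomere pairs known to change around birth. *Myh6*, the fast alpha myosin of the adult mouse heart, had means of 3220, 6737 and 8318 FPKM, and *Myh7*, the slow beta myosin of the fetal heart, of 3561, 1985 and 98.6. The log2 ratio of *Myh6* to *Myh7* thus went from -0.15 through 1.78 to 6.51 (exact permutation p = 0.00357, adjusted 0.0114), a difference of 6.65 between P7d and E18.5d. Over the same time the log2 ratio of *Tnni3* to *Tnni1* moved by 1.37. The difference between both log2 ratios itself changed by -5.28 from E18.5d to P7d (exact permutation p = 0.00357, adjusted 0.0114), so the troponin I pair moved less than the myosin pair. At P1d the troponin ratio had moved by 0.33 and the myosin ratio by 1.92, with an exact permutation p of 0.1 for that difference, the smallest for 3 hearts against 3. At P7d *Myh7* stood at 98.6 FPKM and *Tnni1* at 862. For *Actc1* and *Acta1*, the cardiac and skeletal actins, the log2 ratio was 7.34, 7.59 and 7.11, and its exact permutation p was 0.157. Against this pair the troponin I ratio rose by 1.61 from E18.5d to P7d (exact permutation p = 0.025, 0.05 adjusted, which is not under the threshold).

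**Figure D5:**
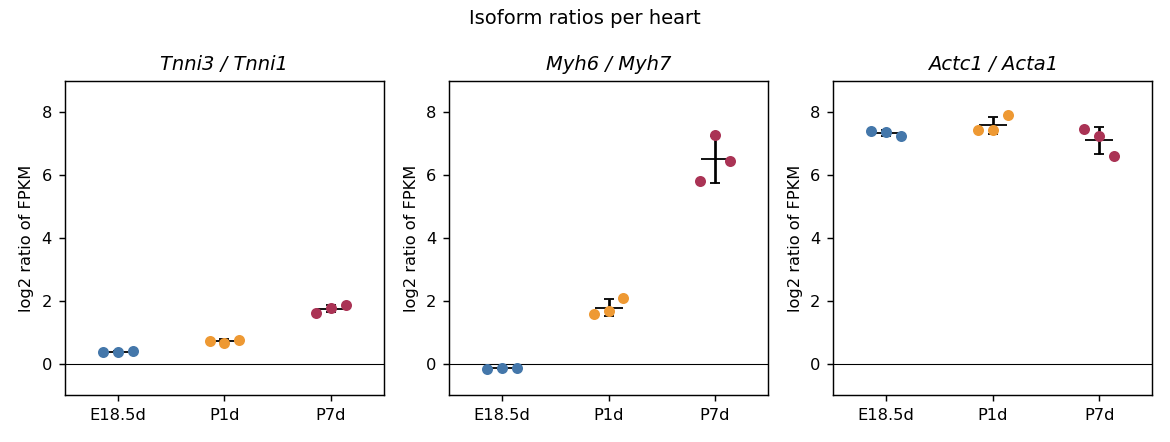
Log2 ratio of FPKM for *Tnni3* to *Tnni1*, *Myh6* to *Myh7* and *Actc1* to *Acta1* in each heart (points), with mean and SD (n = 3). The troponin I ratio ends at 1.75 at P7d and the myosin ratio at 6.51, and the actin hearts overlap between stages.

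Of the 8 genes, 6 lie in troponin I and troponin T pairs on 2 chromosomes, by GENCODE M21 on GRCm38. *Tnni1* (ENSMUSG00000026418.16, chr1:135779434-135810989, plus strand) lies 25364 bases before *Tnnt2* (ENSMUSG00000026414.13, chr1:135836354-135852260, plus strand). *Tnnt1* (ENSMUSG00000064179.13, chr7:4504570-4516382, minus strand) lies 1922 bases from *Tnni3* (ENSMUSG00000035458.15, chr7:4518305-4524229, minus strand). The third pair is *Tnni2* (ENSMUSG00000031097.15, chr7:142441808-142444410) and *Tnnt3* (ENSMUSG00000061723.18, chr7:142498836-142516009), both on the plus strand and 54425 bases apart. *Tnnc1* (ENSMUSG00000091898.8, chr14:31208312-31211729, plus strand) and *Tnnc2* (ENSMUSG00000017300.9, chr2:164777161-164779967, minus strand) stand alone.

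Neighbours did not all move alike. *Tnni1* and *Tnnt2* both fell by P7d, and their log2 ratio was -1.30, -1.36 and -1.83 at the 3 stages, a change of -0.53 from E18.5d to P7d (exact permutation p = 0.025, 0.05 adjusted). The closest neighbours, *Tnni3* and *Tnnt1*, went in opposite directions between E18.5d and P7d, and their log2 ratio rose from 5.32 through 5.71 to 6.03 (exact permutation p = 0.00714, adjusted 0.0190). *Tnni2* and *Tnnt3* were both lower at P7d than at E18.5d, as given above. The ratios of neighbours were chosen after their values had been seen.

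The markers of other muscle bear on the skeletal and slow isoforms. The sum of 20 skeletal muscle markers was 75.1 to 87.1 FPKM at E18.5d, 45.2 to 47.6 at P1d and 28.1 to 32.7 at P7d, which moved with the fall of *Tnni2* and *Tnnt3*, and most of it was *Casq1*, a calcium store protein. Without *Casq1* the sums were 16.8 to 19.2, 8.77 to 12.1 and 13.1 to 17.1 FPKM, and the remaining markers differed in direction. *Mybpc2* was at 4.38 to 5.12 FPKM at E18.5d and 8.59 to 12.31 at P7d, and *Cacna1s* was also higher at P7d. *Myh8* was at 4.37 to 5.35 FPKM at E18.5d and 1.55 to 1.97 at P7d. *Mylpf*, *Jsrp1*, *Mybpc1* and *Actn3* were likewise lower in every P7d heart than in any E18.5d heart. Of the 20 markers, 12 were under 0.5 FPKM in every heart, *Pax7* was at 0 in all of them, and the myogenic factors *Myod1* and *Myog* did not exceed 0.02 and 0.14 FPKM. The sum of 5 atrial markers was 6568 to 7741 FPKM at E18.5d, 6563 to 6958 at P1d and 3366 to 3588 at P7d. Like *Tnni1* and *Tnnt2*, this sum was lowest at P7d, but its members differed at P1d. From E18.5d to P1d *Myl4* (1572 to 1832, then 1157 to 1402), *Myl7* (2493 to 3168, then 1921 to 2416) and *Bmp10* (54.9 to 60.5, then 31.6 to 39.2) fell. *Nppa* (1958 to 2204, then 2260 to 2870) and *Sln* (476 to 496, then 526 to 681) rose. The sum of 4 ventricular markers was 15929 to 17719, 17560 to 20075 and 18414 to 20139 FPKM. Most of it was *Myl2*, while *Hey2* was at 26.7 to 31.35 FPKM at E18.5d and 5.41 to 6.92 at P7d. Whether these markers have a part in the troponin values was not tested.

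The other cell types of the heart were read by the same kind of sum at E18.5d, P1d and P7d. The conduction system markers summed to 8.63 to 10.1, 7.81 to 9.17 and 7.87 to 8.50 FPKM, and the smooth muscle markers to 716 to 885, 693 to 797 and 552 to 666. Fibroblast markers summed to 808 to 856, 650 to 929 and 1041 to 1071 FPKM, and endothelial markers to 270 to 303, 308 to 330 and 374 to 391. Both sums were highest at P7d, when *Tnni1* and *Tnnt2* were lowest, but not every marker was. Of the fibroblast markers, *Pdgfra* was at 27.5 to 42.4 FPKM at P1d and 27.15 to 27.78 at P7d. *Tcf21* was at 24.5 to 27.3 at E18.5d and 22.8 to 26.2 at P7d. Endothelial *Pecam1* was at 122 to 145 at P1d and 125 to 131 at P7d. *Tek* was at 39.6 to 45.0 at P1d and 38.5 to 40.1 at P7d. Erythroid markers summed to 5806 to 15463, 8916 to 17113 and 5716 to 7403 FPKM, and macrophage markers to 25.3 to 32.6, 34.4 to 51.3 and 36.9 to 40.3. Their part in the troponin values was not tested.

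Troponin works together with the rest of the thin filament, and 15 partners (actins, tropomyosins, tropomodulins, leiomodins and filament-associated proteins) were read from the same fit. At P7d against E18.5d, 10 of the 15 passed, 6 higher and 4 lower, with a median log2 change of 0.06 against -0.17 over all genes, where 49.4% of all genes passed (12.5% higher and 36.9% lower). With median-of-ratios scaling 8 passed, 7 higher and 1 lower. The largest rises with hearts that did not overlap were *Tmod4* (0.523 to 2.18 FPKM, log2 change 1.07), a pointed-end cap, *Fhod3* (65.8 to 98.0 FPKM, 0.57), a formin of the cardiac sarcomere, and *Nrap* (101 to 130 FPKM, 0.35), an anchoring protein. The largest falls under the same condition, which leaves out the called *Tpm2* (-0.33), were *Cap2* (94.1 to 55.0 FPKM, -0.76), which takes part in actin turnover, *Tpm4* (-0.32) and *Tpm3* (-0.27), both tropomyosins. The count fell to 5 with columns of equal sum and without E18.5d replicate 1, E18.5d replicate 2 or P7d replicate 2, and the calls of *Tpm3* and *Tpm4* were among those lost in each case. With median-of-ratios scaling *Tpm3* was at -0.093 (adjusted p = 0.449), *Tpm4* at -0.14 (0.358) and *Nrap* at 0.53. At P1d against E18.5d, 9 of the 15 passed (3 higher, 6 lower, median -0.16) beside 46.0% of all genes, and at P7d against P1d 8 passed (6 higher, 2 lower, median 0.22) beside 44.2%. With median-of-ratios scaling these were 4 higher and 5 lower, and 9 higher and 2 lower.

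Of 20 kinases, phosphatases and proteases known to act on cardiac troponin, 19 were tested. At P7d against E18.5d 12 passed, 4 higher and 8 lower (median -0.14), at P1d against E18.5d 5 passed (2 higher, 3 lower, median -0.01) and at P7d against P1d 10 passed (4 higher, 6 lower, median -0.04), beside 49.4%, 46.0% and 44.2% of all genes. The split turned with the scale: with median of ratios it was 7 higher and 3 lower, 4 and 2, and 7 and 5 in these comparisons, and with columns of equal sum 1 higher and 7 lower, 0 and 6, and 4 and 3. The highest values at P7d against E18.5d were those of *Capn1* (0.53), a protease activated by calcium, *Prkar1a* (0.37), a regulatory subunit of protein kinase A, and *Prkce* (0.34), a protein kinase C. With columns of equal sum the *Prkar1a* call was lost (adjusted p = 0.0532), and the *Prkce* call was lost there (0.154) and without E18.5d replicate 2 (0.0840) or P7d replicate 3 (0.0779). The lowest were *Ppp1cc* (141 to 87.6 FPKM, -0.68), a catalytic subunit of protein phosphatase 1, *Prkd1* (-0.52), a protein kinase D, and *Prkcd* (-0.45, or -0.29 with median of ratios), a protein kinase C. The count at P1d against E18.5d was 3 without E18.5d replicate 3 and 8 without P1d replicate 3, and that at P7d against P1d was 6 without P7d replicate 2.

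Of 12 transcription factors known at troponin promoters, 11 were tested. At P1d against E18.5d 4 passed, all higher (median 0.09), beside 46.0% of all genes (18.4% higher and 27.6% lower). At P7d against P1d 4 passed, all lower (median -0.10), beside 44.2% (15.5% higher and 28.6% lower). On the deposited scale, neither share exceeds that of all genes over both directions, whereas in the called direction both do. With columns of equal sum only 2 passed in each, beside 5869 and 3929 of all 13618 genes. With median of ratios 2 passed at P7d against P1d, beside 5686 of all genes, 2700 of them lower. On that scale the factors thus did not exceed all genes in the called direction. The same P1d hearts stand in both comparisons. *Gata6*, a zinc finger factor of the heart, had means of 40.2, 58.2 and 28.6 FPKM. At P7d against E18.5d 3 passed (median -0.02), beside 49.4% of all genes, which were *Mef2d* (24.7 to 33.7 FPKM, log2 change 0.44), *Gata6* (-0.48) and the homeobox factor *Nkx2-5* (39.5 to 28.5 FPKM, -0.46). With median of ratios 5 passed, with *Gata6* at -0.30 and *Nkx2-5* at -0.28.

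The genes most like the abundant members were sought among 8829 other genes by Pearson's r of log2(FPKM + 1) over the 9 hearts, which share libraries, column scale and stages, so r is a description. For *Tnni1* these were *Rps25* (r = 0.996) and *Rpl24* (0.995), both ribosomal proteins, and *Imp3* (0.995). For *Tnni3* they were *Cish* (0.992), a suppressor of cytokine signalling with means of 16.3, 30.7 and 27.4 FPKM, *March2* (0.984) and the potassium channel *Kcnh2* (0.980), with 21.3, 35.0 and 33.8 FPKM. Being chosen by r, these share the stage order of *Tnni3*, lowest at E18.5d and highest at P1d. For *Tnnt2* they were *Thumpd1* (0.988), *Aff2* (0.987) and *Hbs1l* (0.986), for *Tnnc1* *Psmd8* (0.978), *Tmem128* (0.977) and *Ufc1* (0.970), and for *Tnnt1* *Mrps18c* (0.964), *Atp1b3* (0.950) and *Maged2* (0.947).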

How the data were processed

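RNA was extracted with TRIzol and libraries were made from 2 µg of RNA with the NEBNext Ultra kit. The authors deposited FPKM values of 48820 genes, 1 column per heart. The submitters' processing notes name STAR and GRCm38/mm10, and the counting tool and annotation are not given in the sources used here. Of the identifiers, 48058 matched GENCODE M21.

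Hearts were grouped by stage from their labels. On log2(FPKM + 1), a single fit of all stages with no covariate was made by limma 3.58.1 (R 4.3.3; lmFit, contrasts.fit and trended eBayes) for the 13618 genes whose mean reached 1 FPKM, with Benjamini-Hochberg adjustment over all of them and a threshold of 0.05. Shares and ratios per heart were tested in Python 3.11.15 (numpy 2.4.6, pandas 2.3.3) by exact permutation over all 1680 assignments of hearts to stages. Figures were drawn with matplotlib 3.10.9. The fit was checked on simulated data. FPKM are not counts, and between 83.7% and 90.0% of low values were whole fragments within 0.1, from which the depth was read.

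The members, gene lists and tests were chosen with earlier results of these data known. Named from each list were up to 3 called genes in each direction with the largest change and no overlap of hearts at P7d against E18.5d, and for the 5 abundant members the 3 protein-coding genes of highest correlation among those averaging 5 FPKM or more. The settings varied were the pseudocount (0.1), the filter (none, or a mean of 5 FPKM), the scale of the columns (equal sum, median of ratios, quantile), the trend of eBayes, the stages in the fit, a block for the replicate number, *Xist* (a covariate for hearts above 1 FPKM, or those hearts dropped), a further limit on the log2 change (1) and each heart left out once. The share of fragments by transcript length was added after seeing the data.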

Additional observations from a re-analysis of the deposited data

How the results depend on the processing

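The *Tnni3* share kept its direction under every alternative run. Fixed gene lengths or another test could not have turned it. Nor could dropping or pooling hearts, since the hearts did not overlap between stages. The share's difference between P7d and E18.5d was 19.1 to 23.1 percentage points over the other settings and 19.9 to 21.4 with 1 heart left out. It was 5.47 to 5.81 and 5.04 to 6.01 at P1d against E18.5d, and 13.3 to 17.5 and 14.4 to 15.9 at P7d against P1d. With only the hearts of low *Xist*, the differences of 19.1, 5.81 and 13.3 points had an exact permutation p of 0.1, the smallest of that design.

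The count of troponin genes called at P7d against E18.5d was 2 with an added absolute log2 change of at least 1, and 5 to 6 with 1 heart left out. At P1d against E18.5d it was 1 with columns of equal sum, where 5869 of all 13618 genes passed. It was also 1 with the *Xist* covariate, where 4500 passed, 0 with the added log2 change, and 1 to 2 with 1 heart left out. At P7d against P1d the count was 1 with the added log2 change and 3 to 4 with 1 heart left out. The share of all genes was not counted for the log2 limit or with 1 heart left out. The fit with only the hearts of low *Xist* is described above.

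Directions that turned belonged to values that had not passed. With columns of equal sum, P1d against E18.5d gave -0.068 for *Tnnt2*, -0.13 for *Tnni1* and -0.073 for *Tnnc1*, and P7d against P1d gave 0.067 for *Tnni3*. With median of ratios, *Tnnc1* was 0.12 at P7d against E18.5d, *Tnnt1* 0.043 at P1d against E18.5d and *Tnni3* 0.048 at P7d against P1d. With quantile normalization, *Tnnc1* was 0.063 at P7d against E18.5d, -0.012 at P1d against E18.5d and 0.075 at P7d against P1d, *Tnni1* was -0.18 and *Tnnt2* -0.37 at P1d against E18.5d, and *Tnni3* was 0.11 at P7d against P1d. At P1d against E18.5d, *Tnni1* was -0.036 with the *Xist* covariate and -0.0076 with only the hearts of low *Xist*. With 1 heart left out it ranged from -0.020 (without P1d replicate 2) to 0.082, and *Tnnt1* from -0.16 to 0.094 (above 0 without E18.5d replicate 2 or P1d replicate 1). The causes were not tested.

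Of the lists, thin filament partners called at P7d against E18.5d numbered 5 with columns of equal sum and 5 to 10 with 1 heart left out. The troponin modifiers numbered 3 to 8 at P1d and 6 to 10 at P7d against P1d with 1 heart left out. The transcription factors numbered 5 with median of ratios at P7d against E18.5d, 2 with columns of equal sum at P1d against E18.5d, and 2 with either at P7d against P1d.

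With 1 heart left out, the difference between P7d and E18.5d ranged from -0.0863 to -0.0605 percentage points for the *Tnni2* share, from -0.0454 to -0.0262 for the *Tnnt3* share and from -0.000582 to 0.00138 for the *Tnnc2* share. It ranged from 0.230 to 0.332 for the ratio of troponin I to T, from -0.41 to 0.0070 for log2 *Actc1* to *Acta1* and from -0.59 to -0.44 for log2 *Tnni1* to *Tnnt2*. The *Tnnc2* share, positive with all hearts, turned negative without E18.5d replicate 1, E18.5d replicate 3, P7d replicate 1 or P7d replicate 3, and the actin ratio turned without P7d replicate 3.

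The correlations between deviations of hearts with the same replicate number lay within the range of the others (r from -0.0546 to 0.112, against -0.182 to 0.129). These are few pairs that depend on each other, so a weak link between equal numbers could not be detected this way. With the replicate block, the genes called were 6667 for P7d and 6173 for P1d against E18.5d and 5857 between the postnatal stages, *Tnnt1* did not pass at P7d against P1d (adjusted p = 0.0528), and the *Tnni3* share had an exact permutation p of 0.0278, the smallest a block allows.

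With 3 hearts a stage, no pair of stages can reach an exact p under 0.1. The gene length behind FPKM is not stated, and the depth rests on the exon-union length less a number of bases fitted in each heart. The scale moves the median of all genes, and *Tnnc2* lies at the limit of the depth.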
